A study of Homo sapiens with 8 samples.

Results

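The genes examined here encode the proteins of the cytosolic ribosome. They were chosen by name: every gene of the count table whose symbol is RPL or RPS followed by digits and at most one letter A or X, together with RPLP0, RPLP1, RPLP2 and RPSA, provided that each library held at least 10 counts. Of 25369 genes in the table, 77 carried such a name and 76 were kept, 45 of the large and 31 of the small subunit. RPL21 was the one left out, with 0 to 3 counts per library. The libraries came from LX-2, a wild type line of immortalized hepatic stellate cells of human origin, the cell type that lays down scar matrix in the liver. The cells were grown on polyacrylamide hydrogels of 2 kPa (soft) or 40 kPa (stiff) for 2 or 4 days, with 2 libraries for each of the 4 conditions and 8 in all. LX-2 is a single cultured line, and the study describes its sequencing libraries as biological replicates. The labels tie no library to a culture, so the tests measure the spread between these libraries.

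Each ribosome joins one copy of nearly every one of these proteins to ribosomal RNA, the small subunit reading the mRNA and the large subunit forming the peptide bond. The mRNAs are short, very abundant and classically begin with a terminal oligopyrimidine tract, a C followed by a run of C and T at the first transcribed base, through which mTOR signaling and LARP1 control their translation and stability together. Mature mRNAs also left many processed pseudogenes, copies spread over the genome, so reads of these genes are harder to place than most. Ribosome production is known to accompany cell growth, and activated stellate cells grow, divide and secrete collagen.

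The shared tract is shown in the following windows for the stalk genes RPLP0 and RPLP1, for RPS6 and for those members called with time that have an entry, taken from RefSeq on GRCh38.p14. Each holds the 15 bases before and the 15 bases from the annotated start, read along the transcribed strand, and capitals mark the longest run of C and T that opens with a C within 5 bases of the start.
RPLP0 (chr12:120201097-120201126, minus strand): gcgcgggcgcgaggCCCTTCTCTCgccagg
RPLP1 (chr15:69452803-69452832, plus strand): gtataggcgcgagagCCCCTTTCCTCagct
RPS6 (chr9:19380222-19380251, minus strand): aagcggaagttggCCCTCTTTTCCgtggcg
RPS23 (chr5:82278340-82278369, minus strand): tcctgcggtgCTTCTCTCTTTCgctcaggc
RPS3A (chr4:151099613-151099642, plus strand): cgactcccacttccgCCCTTTTggctctct
RPL22 (chr1:6199581-6199610, minus strand): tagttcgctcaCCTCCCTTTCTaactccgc
RPL36A (chrX:101390996-101391025, plus strand): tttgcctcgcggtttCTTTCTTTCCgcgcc
RPS10 (chr6:34426055-34426084, minus strand): ccgcgcatgctCCTTCCTTTCCagccccgg
RPL17 (chr18:49492451-49492480, minus strand): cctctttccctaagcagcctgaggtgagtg
RPS27A (chr2:55231888-55231917, plus strand): taaggagtgacacacaagacccagactctt
RPS4X (chrX:72277234-72277263, minus strand): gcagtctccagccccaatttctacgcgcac
A window was found for 61 of the 76 members. A C followed by at least 4 bases of C or T, searched on the transcribed strand only, sat exactly at the start in 41 of the 61 windows (67.2%) and in 3.95% of 35040 other promoters. Allowing 5 bases on either side raised this to 80.3% of the members' windows and 21.0% of the others. In RPL17, RPS27A and RPS4X no such run begins within 5 bases of the annotated start, although RPL17 and RPS27A hold one farther from it in the window.

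Levels per length spanned a wide range. In FPKM, counts divided by gene length and by depth after the authors' scaling, the median member lay at 830 over the 8 libraries, with quartiles of 445 and 1133, beside a median of 6.95 over all genes tested. Of the 100 genes with the highest mean FPKM, 53 were members. RPLP0, the scaffold of the ribosomal stalk, stood first at 2000.0 ± 361 (SD, n = 8), followed by RPS2 at 1999 ± 467, the stalk protein RPLP1 at 1848 ± 518, RPL19 at 1725 ± 479 and RPL37A at 1696 ± 874. These SDs span libraries of all conditions, and differences between these leaders were not tested.

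At the other end stood RPL36A at 0.940 ± 0.329, RPL17 at 5.72 ± 3.85, RPS10 at 5.87 ± 4.84, RPL13A at 47.3 ± 20.9 and RPL28 at 92.9 ± 27.5. Only the first 3 were under 10 FPKM, far below the other members although the ribosome holds their proteins in equal number. They are also the only 3 members for which a search by gene name found a read-through gene on the same strand that shares exons. These were RPL36A-HNRNPH2, RPL17-C18orf32 and RPS10-NUDT3, whose rows held 0 counts in every library. In all, 32 members share exons with some other annotated gene on their strand, and those without such a name were not checked for read-through. The length that enters the FPKM of RPL28 was 5183 bases, the longest among the members, whose median was 843. The part of the gene model in these low values was not tested.

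Depth lay between 19955975 and 27263935 counts per library, and the members took between 4.54% and 8.09% of them, with 95% Wilson intervals no wider than 0.0120 percentage points on either side, which cover counting error only. The soft libraries of 2 days gave 5.51% and 5.25%, and those of 4 days 5.89% and 4.78%. The stiff libraries of 2 days gave 5.30% and 5.32%, and at 4 days library 1 held 4.54% and library 2 held 8.09%. The highest and the lowest share of the series thus came from the same condition. Of 10 stellate markers 7 had at least 10 counts in every library, COL1A1, VIM and TAGLN the most, while DES, LRAT and DCN were at or near 0, with 0 to 4 counts. Of 5 hepatocyte markers, ALB, APOA1, TTR and TF had at most 8 counts and SERPINA1 had 104 to 220. Among macrophage, endothelial and cholangiocyte markers, CD68 had 2072 to 2491 counts, SOX9 504 to 1180 and KRT7 191 to 465. CD14 had 48 to 205, PTPRC 12 to 64 and the others at most 18. The summed stellate markers lay between 3496 and 4128 CPM at 2 days and between 5185 and 6831 CPM at 4 days. VIM weighed most in that sum and changed with time by a log2 fold change of 1.12 on the soft and 0.96 on the stiff matrix. COL1A1 changed by −0.47 and −0.57.

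Library 2 of the stiff matrix at 4 days stood apart from all others in these genes. In 70 of 76 members its level, in counts scaled to a common depth by the TMM method (CPM), was the highest of the 8 libraries, against 26.2% of all genes tested. Its median member lay 0.75 above the members' own means on the log2 scale, while the other 7 libraries lay between −0.26 and 0.07. The 6 members that peaked elsewhere were RPL17, RPL36, RPL36A, RPS10, RPS27 and RPS27A. Against library 1 of the same condition the median member was 2.05-fold higher, with 75 of 76 higher. The chi-square per degree of freedom between replicate libraries, over all genes tested, was 112 here, beside 3.45 to 19.2 in the other conditions.

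The shift in that library was not limited to ribosomal proteins. Other genes in the members' central range of length (486.5 to 2802 bases) and GC content (42.6% to 58.4%), 3147 genes, had a median deviation of 0.30 there, and the 77 mitochondrial ribosomal proteins, which build the separate ribosome of that organelle, had one of 0.55. By length, the median deviation of non-members in this library was 0.01 up to 500 bases, 0.56 up to 1000, 0.36 up to 2000, 0.04 up to 4000 and −0.27 beyond. The part of transcript length in the members' shift was not tested beyond the offsets described further on.

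**Figure D1:**
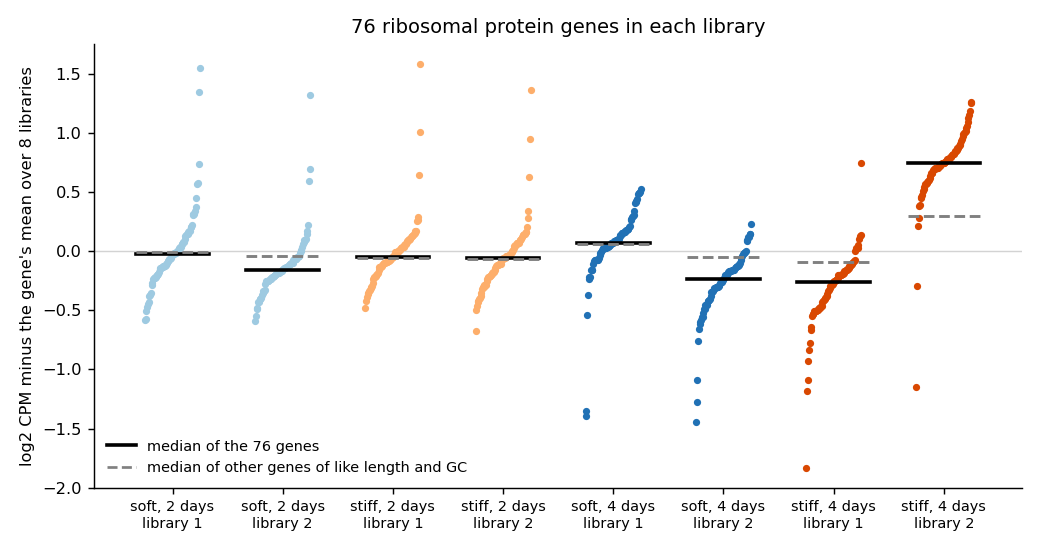
Each point is 1 of the 76 genes in 1 library, plotted as its log2 CPM minus its own mean over the 8 libraries. Black bars mark the members' median and grey dashed bars that of 3147 other genes of like length and GC content. Library 2 of the stiff matrix at 4 days lies at 0.75 while the other 7 medians lie between −0.26 and 0.07.

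Stiffness was compared first after 2 days. No member passed an adjusted p-value of 0.05 in the quasi-likelihood model of edgeR (Benjamini-Hochberg adjustment over all genes). The same was true of all 14570 genes tested (0%). An unadjusted p under 0.05 was reached by 0 members and by 411 of the genes tested. Neither DESeq2 (0.192% of all genes called) nor limma on log2(FPKM + 1) (0%) called a member. In bulk RNA, fewer cells that express a gene and less RNA of it per cell cannot be told apart. The members' log2 fold changes, stiff against soft, had a median of 0.02 (all genes 0.01) and ran from −0.24 to 0.23, with 47 above and 29 below 0. RPS2, RPS23, a decoding-center protein, and RPL4 had the largest values, 0.23 ± 0.260 (SE), 0.20 ± 0.287 and 0.18 ± 0.218, and RPL34, RPS21 and RPS29 the smallest, −0.24 ± 0.373, −0.22 ± 0.435 and −0.18 ± 0.458. All 6 values lie within their own standard error. The libraries of both matrices did not overlap in 21 members that were higher and 6 that were lower on the stiff matrix, where the background over all genes is 25.7% and 22.4%. The median moved to 0.11 with offsets for length and GC content and to −0.040 without scaling factors.

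RPS6 lay at one level in all 4 libraries of 2 days. The protein is the classical substrate of the S6 kinases, and its mRNA measured 754 and 753 CPM on the soft and 776.5 and 764 CPM on the stiff matrix. RPL5 and RPL11, which bind MDM2 together with the 5S ribosomal RNA when ribosome assembly fails, had log2 fold changes of 0.14 ± 0.278 and −0.0044 ± 0.313. RPSA, whose product also serves as a laminin receptor at the cell surface, had one of 0.07 ± 0.302.

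After 4 days almost every member was higher on average on the stiff matrix, and none passed the test. The median log2 fold change was 0.39, a 1.31-fold higher level, against 0.02 over all genes, and 75 of 76 members lay above 0. Large subunit members had a median of 0.39 and small subunit members of 0.40. The smallest adjusted p among members was 0.813 by edgeR's quasi-likelihood test, while 0.247% of all genes passed the adjusted threshold. An unadjusted p under 0.05 was reached by 0 members and by 1010 of 14570 genes tested. DESeq2 (1.05% of all genes called) and limma on log2(FPKM + 1) (0.299%) called 0 members as well.

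Values by library show what stood behind the average. RPLP0 measured 2330.0 and 2031 CPM on the soft matrix, and 2098 and 3485 CPM on the stiff matrix. RPS6 measured 880.1 and 733 CPM on the soft and 695 and 1383 CPM on the stiff matrix. In both genes library 1 of the stiff matrix lay within or below the soft libraries and library 2 above them.

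The same picture held for RPSA, with 1749.9 and 1375 CPM on the soft and 1434.5 and 2921 CPM on the stiff matrix. RPL11 measured 688 and 531 CPM on the soft and 545 and 1157 CPM on the stiff matrix, and RPL5 measured 739 and 597 CPM on the soft and 585 and 1118 CPM on the stiff matrix. Their log2 fold changes were 0.48 ± 0.302, 0.48 ± 0.314 and 0.35 ± 0.279. For 54 of 76 members library 1 of the stiff matrix lay below both soft libraries and library 2 above both, a pattern seen in 19.4% of all genes. The groups failed to overlap in 1 member, RPL17, higher on the stiff matrix (background 11.7%), and in 0 members lower (background 14.0%).

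RPL17, RPL13A and RPL35 had the largest log2 fold changes, 0.66 ± 0.337, 0.66 ± 0.450 and 0.57 ± 0.355. RPS10 at −0.04 ± 0.297, RPL15 at 0.17 ± 0.166 and RPS27 at 0.21 ± 0.246 had the smallest. Among the stalk proteins RPLP0, RPLP1 and RPLP2 the values were 0.36 ± 0.235, 0.37 ± 0.353 and 0.45 ± 0.390. The SD of the fold changes among members was 0.104, beside 0.481 over all genes, which include many of low level. It was 0.147 among mitochondrial ribosomal proteins and 0.149 among ribosome biogenesis factors, so a narrow spread was not particular to the members.

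Library 2 decided the direction. Without it the median fell to −0.22, with 72 members lower on the stiff matrix and 0 called (3.63% of all genes). Without library 1 of the stiff matrix the median was 0.85 and 74 members passed, all higher (31.1% of all genes passed, 16.5% higher), in a fit that assumes the lone library to vary like the other conditions. RPLP0 moved from −0.05 to 0.69 between these fits and RPS6 from −0.21 to 0.79. With offsets for length and GC content the median dropped to 0.24, with 75 members still above 0 and 0 called (0.954% of all genes).

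**Figure D2:**
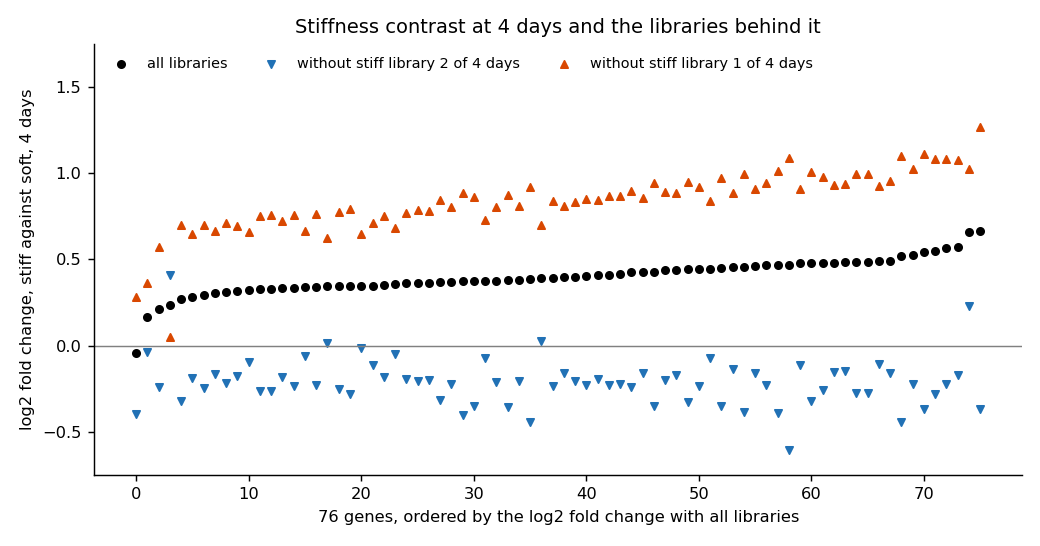
The log2 fold change of stiff against soft at 4 days is plotted for the 76 genes, ordered by the value from all libraries (black circles). Blue triangles leave out library 2 of the stiff matrix at 4 days (median −0.22) and orange triangles leave out library 1 (median 0.85), so the points lie mostly on opposite sides of 0.

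Whether the matrix effect itself changed between the days was tested as an interaction. This term had a median of 0.38 among members (0.01 over all genes), with 75 of 76 values above 0. It gave 0 calls, as over all genes (0%). An unadjusted p under 0.05 was reached by 0 members and by 284 of 14570 genes tested. DESeq2 called 0 members (0.015% of all genes) and limma on log2(FPKM + 1) called 0 (0%). RPS21 and RPL17, both at 0.74, with SE of 0.616 and 0.438, and RPL35 at 0.70 (SE 0.5002) were the largest. RPS10 at −0.08 ± 0.365, RPS2 at 0.12 ± 0.367 and RPL15 at 0.14 ± 0.234 were the smallest. Without library 2 of the stiff matrix at 4 days the median turned to −0.23 with 0 calls, and without library 1 it was 0.83 with 70 calls (20.9% of all genes).

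Time in culture gave a different picture, with a few members far from the others on each matrix. On the soft matrix the median log2 fold change of 4 against 2 days was 0.03, beside 0.02 over all genes, but single members ran from −2.86 to 0.90. By edgeR's quasi-likelihood test 3 members passed (27.4% of all genes did), 0 higher (14.1% of all genes) and 3 lower (13.3%). The libraries of both days did not overlap in 22 members that were higher and 16 that were lower at 4 days, against 38.5% and 36.7% of all genes.

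RPS10, a small subunit protein near the mRNA entry (GRCh37 chr6:34385231-34393846, minus strand), fell furthest on the soft matrix. It measured 276 and 231 counts (9.72 and 8.31 CPM) at 2 days and 27 counts in each library (1.26 and 1.22 CPM) at 4 days, a log2 fold change of −2.86 ± 0.252 (adjusted p = 0.00141, edgeR). The days were separated by a wide gap. RPL17, which lines the peptide exit tunnel (chr18:47014823-47018878, minus strand), went from 379 and 235 counts (13.3 and 8.46 CPM) to 44 and 48 counts (2.05 and 2.16 CPM), a change of −2.37 ± 0.317 (adjusted p = 0.00313, edgeR).

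RPS27A, made as a fusion with ubiquitin that is cleaved off (chr2:55459039-55462989, plus strand), was the third member to fall. It measured 304 and 275 CPM at 2 days and 126 and 85.9 CPM at 4 days, a change of −1.45 ± 0.399 (adjusted p = 0.0315, edgeR). Unlike the other two it was well covered, with 1906 counts or more in every soft library. Its call was lost when any one soft library, or any one stiff library of 2 days, was left out (adjusted p = 0.0619 to 0.169, edgeR), with changes of −1.21 to −1.78, while RPS10 and RPL17 passed in each of these fits. Leaving out either stiff library of 4 days, which enter this contrast only through the shared estimate of the spread, let 29 members pass, where 52.9% of all genes passed without library 1 and 52.7% without library 2. RPS23 at 0.90 ± 0.289, RPL7 at 0.81 ± 0.305 and RPS3A at 0.80 ± 0.332 had the largest values upward and did not pass (adjusted p = 0.0529, 0.0852 and 0.109, edgeR). RPS23 measured 506 and 517 CPM at 2 days and 1065 and 839.8 CPM at 4 days.

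On the stiff matrix the median was 0.37, beside 0.03 over all genes, and 67 of 76 members lay above 0. By the same test 9 members passed (27.6% of all genes did), 7 higher (14.0% of all genes) and 2 lower (13.7%). In 17 members that were higher and 3 that were lower the days did not overlap, where the background is 31.6% and 31.1%. The 9 calls rest in part on library 2 at 4 days: without it the median was −0.22, with 7 members called higher (21.1% of all genes) and 28 lower (22.6%), and without library 1 it was 0.79, with 69 called higher (26.4%) and 3 lower (25.7%). Leaving out either stiff library of 2 days left RPS10 as the 1 call (5.74% and 3.14% of all genes), and leaving out a soft library left 3 or 4 (at least 16.4%).

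RPS10 fell again, from 237 and 204 counts (9.95 and 8.54 CPM) at 2 days to 19 and 26 counts (0.933 and 1.497 CPM) at 4 days, a log2 fold change of −2.94 ± 0.258 (adjusted p = 0.00129, edgeR). RPL17 went from 251 and 242 counts (10.5 and 10.1 CPM) to 50 and 74 counts (2.46 and 4.26 CPM), a change of −1.63 ± 0.308 (adjusted p = 0.00899, edgeR). Both 4-day libraries of each gene lay below both 2-day libraries. Without either stiff library of 2 days the RPL17 call was lost (adjusted p = 0.0599 and 0.0678, edgeR). RPS27A measured 286 and 282 CPM at 2 days and 80.3 and 212 CPM at 4 days, lower in each library, with −0.96 ± 0.395 (adjusted p = 0.107, edgeR). Its change was −1.83 without library 2 at 4 days.

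The 7 members that rose on the stiff matrix were RPS3A, RPL7, RPL22, RPS23, RPL36A, RPL23A and RPS4X. RPS3A, a protein of the mRNA exit side, measured 562 and 557 CPM at 2 days and 799 and 1784 CPM at 4 days, a change of 1.21 ± 0.335. RPL7, a large subunit protein, measured 544 and 525 CPM at 2 days and 743 and 1545 CPM at 4 days, a change of 1.10 ± 0.306. In both genes the lower library of 4 days still lay above both of 2 days.

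RPL22, which also binds other RNAs and carries out extraribosomal tasks, measured 311 and 302 CPM at 2 days and 457 and 837.5 CPM at 4 days, a change of 1.08 ± 0.270. RPS23 went from 615 and 561 CPM to 829.6 and 1616 CPM and RPL36A, a large subunit protein at the tRNA exit site, from 2.10 and 1.63 CPM to 4.37 and 3.40 CPM, both changes being 1.06, with SE of 0.290 and 0.251. RPL23A, which contacts the signal recognition particle at the tunnel exit, changed by 0.998 ± 0.298 and RPS4X by 0.98 ± 0.292. The adjusted p-values of the 7, by edgeR, ran from 0.0196 for RPL36A to 0.0417 for RPL23A. RPL9 at 1.14 ± 0.390 did not pass (adjusted p = 0.0644, edgeR). RPL36A was the one of the 7 whose higher value at 4 days came from library 1.

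**Figure D3:**
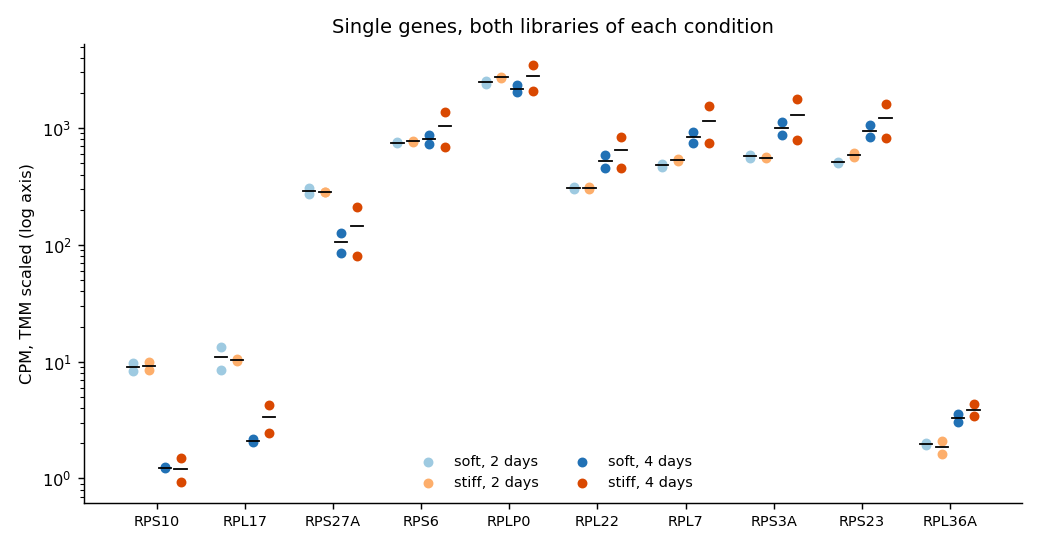
TMM-scaled CPM of 10 genes on a log axis, with a point for each library and a short bar for the mean of the 2 libraries of a condition. RPS10 and RPL17 drop at 4 days on both matrices, RPLP0 and RPS6 are highest in library 2 of the stiff matrix at 4 days, and RPL22, RPL7, RPS3A and RPS23 lie higher at 4 days in every library.

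The 2 time contrasts share no library. Across the 76 members the Pearson correlation of their log2 fold changes was 0.97 and the Spearman correlation 0.93, and without RPS10, RPL17 and RPS27A these were 0.95 and 0.92. Over all 14570 genes r was 0.83. Genes are not replicates of one another in such a correlation across genes, and both contrasts share the trend with GC content given further on. With offsets for length and GC content the members' r was 0.96. The members fell on the same side of the members' median in both contrasts in 62 of 76 cases, with 40 higher and 9 lower at 4 days on both matrices. The stiffness contrasts, which share no library either, had a Pearson r of −0.01 across members.

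**Figure D4:**
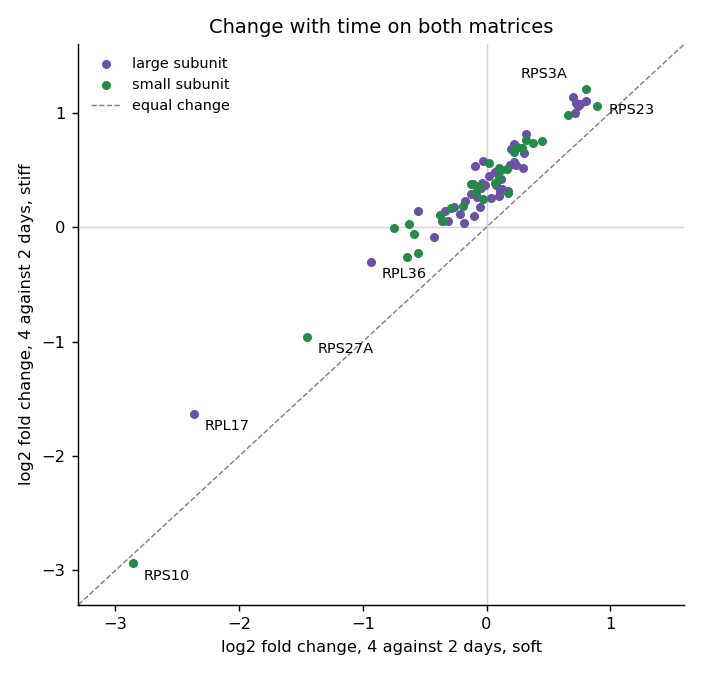
Log2 fold change of 4 against 2 days on the soft matrix (horizontal) and on the stiff matrix (vertical) for the 76 genes, colored by subunit, with a dashed line of equal change. The points follow a line (Pearson r of 0.97) that lies above the diagonal except at RPS10, with RPS10, RPL17 and RPS27A far down at the lower left.

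Each member was also compared with the other members by taking the scaling factors from the 76 genes alone, a setting added after the data were seen. This takes out the shift that a library gives to all of them. RPS10, RPL17 and RPS27A were then the 3 members called lower at 4 days on the soft matrix, at −2.88, −2.38 and −1.50 (adjusted p = 0.0234, 0.0355 and 0.0459, edgeR). Of all genes 0.769% passed on the soft and 1.52% on the stiff matrix in this setting. The same 3 members were called on the stiff matrix, at −3.28, −1.99 and −1.42 (adjusted p = 0.0191, 0.0403 and 0.0423, edgeR). No member was called higher on either matrix, and RPS3A, RPL7 and RPS23 had 0.78, 0.69 and 0.66 on the stiff matrix. Neither stiffness contrast gave a call, as over all genes (0%).

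Genes beside RPS10 and RPL17, and a pseudogene of RPS10, were also lower at 4 days. C18orf32, the partner of RPL17 in its read-through gene, had 134 and 60 counts on the soft matrix at 2 days and 6 in each library at 4 days, a log2 fold change of −3.62, and −3.31 on the stiff matrix. NUDT3, the partner of RPS10, changed by −0.77 and −1.12. All 4 values passed (adjusted p = 0.00324, 0.00477, 0.0217 and 0.00686, edgeR). The pseudogene RPS10P7 fell too, with log2 fold changes of −2.33 on the soft and −2.15 on the stiff matrix. So did pseudogenes of members not called in the main fit, such as RPL23P8 with −3.01 and −2.78 and RPS26P11 with −5.58 and −2.89. The annotation used for counting and its strand setting are not given in the sources used here, so reads of RPS10 and RPL17 and those of their neighbors cannot be told apart.

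The counts given to pseudogenes were lower at 4 days, mainly in copies of RPSA. The table held 30 rows named as pseudogenes of members, with 0.670% to 0.738% of the members' own counts at 2 days and 0.280% to 0.375% at 4 days. Without the copies of RPSA these shares were 0.144% to 0.161% and 0.102% to 0.128%. Of 19 tested, 1 rose and 7 fell on each matrix, where 13.3% and 13.7% of all genes fell. RPSAP9 fell from 2370, 1597, 1845 and 1726 counts at 2 days to 143, 171, 178 and 145 counts at 4 days, while RPSA, the gene it was copied from, had log2 fold changes of 0.10 on the soft and 0.51 on the stiff matrix. RPSAP58 fell less, with −0.99 and −0.76. Reads of a gene and of its near-identical copies are not separable in these counts. The annotation names 1453 pseudogenes of the members, a median of 13.5 each, up to 87 for RPL23A, and their number had a Spearman rho of 0.19 with the time change on the soft and 0.16 on the stiff matrix.

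The members are short, with a median length of 843 bases beside 3133 over all genes tested, and their median GC content is 50.2% beside 48.9%, so they differ from other genes in length more than in GC content. Between days the whole transcriptome followed GC content: over 14120 genes with a value, the Spearman rho of the time change with GC was −0.57 on the soft and −0.44 on the stiff matrix. Within the members it was −0.41 and −0.38. The 26 members of lowest GC had median time changes of 0.19 on the soft and 0.52 on the stiff matrix, and the 25 of highest GC had −0.18 and 0.18. RPS10, at 57.8% GC, and RPL17 and RPS27A, at 43.2% and 43.5%, fell at both ends of that range.

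The stiffness change at 4 days had other trends. Its rho with log length was −0.29 over all genes and −0.14 within the members, and its rho with GC content was 0.14 over all genes and 0.36 within the members. In other genes of the members' central range of length and GC the median stiffness effect at 4 days was 0.12, beside 0.39 in the members. By length alone it was 0.27 in the 709 other genes over 500 and up to 1000 bases, the bin that holds the members' median length. It was 0.18 up to 500 bases and 0.16 from there on between 1000 and 2000 bases. With offsets that take out smooth trends of length and GC per library, 19 members were called on the soft matrix (12 higher, 7 lower), where 28.4% of all genes were, and 20 on the stiff matrix (15 higher, 5 lower), where 31.4% were. Both counts are below those shares of 76 members. RPS10 then had −2.53 and −2.90, RPL17 −2.66 and −2.09, RPS27A −1.75 and −1.44, and all 6 values passed. RPL7, RPL23A and RPS4X were called higher on both matrices, RPL36A and RPL22 on the stiff matrix only (both at 0.39 on the soft matrix), and RPS23 and RPS3A did not pass on either.

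**Figure D5:**
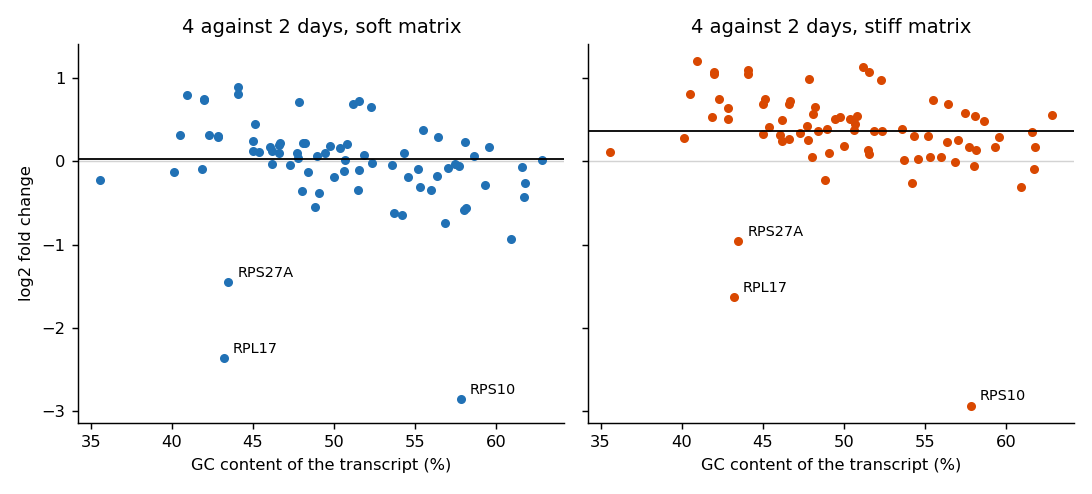
Log2 fold change of 4 against 2 days plotted against GC content for the 76 genes, on the soft matrix (left) and the stiff matrix (right), with a black line at the members' median of 0.03 and 0.37. Values decline with GC content (Spearman rho −0.41 and −0.38), and RPS10, RPL17 and RPS27A lie below this trend.

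Related genes were read beside the members. Their counts with time stand against the shares of all genes called, 14.1% higher and 13.3% lower on the soft and 14.0% higher and 13.7% lower on the stiff matrix. FAU and GNB2L1 (RACK1), ribosomal protein genes outside the naming rule, had stiffness effects of 0.37 and 0.34 at 4 days, and none of their contrasts passed. Among 6 paralogs tested, RPL22L1 rose on both matrices by time, by 1.62 and 1.87, and RPS27L and RPL39L rose on the stiff matrix by 1.25 and 1.26. RPL22L1 is the paralog of RPL22, whose own time changes were 0.76 and 1.08.

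Among 20 elongation factors and other mRNAs with a terminal oligopyrimidine tract, 0 passed for stiffness on either day, 5 rose and 0 fell with time on the soft matrix, and 6 rose and 0 fell on the stiff matrix, with median changes of 0.34 and 0.55. EIF3E, a subunit of initiation factor 3, rose by 0.83 and 0.87, and EIF4B, which assists the helicase of initiation, by 0.97 and 0.66. Their median stiffness effect at 4 days was 0.25, and their median deviation was 0.03 in stiff library 1 and 0.65 in library 2, beside 0.19 and 0.0032 in the soft libraries. Of 77 mitochondrial ribosomal proteins, 0 passed for stiffness on either day, and the median stiffness effect was −0.0099 at 2 and 0.27 at 4 days, with a median deviation of −0.17 in stiff library 1 of 4 days and 0.55 in library 2. With time 10 rose and 2 fell on the soft matrix and 21 rose and 0 fell on the stiff matrix.

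Of 29 ribosome biogenesis factors, 0 passed for stiffness on either day, although all 29 lay above 0 on both days, with medians of 0.13 and 0.29. At 4 days their median deviation was 0.04 in stiff library 1 and 0.33 in library 2. With time 1 rose and 1 fell on the soft matrix and 2 rose and 0 fell on the stiff matrix. Here NIP7 rose by 0.76 and 0.67, and the rRNA methyltransferase NOP2 fell by 0.49 on the soft matrix. Of 12 snoRNA host genes, 1 rose and 1 fell on the soft and 2 rose and 1 fell on the stiff matrix, SNHG12 with −1.004 and −1.13. Of 15 genes that control ribosomal protein synthesis, 0 rose and 5 fell on the soft and 1 rose and 5 fell on the stiff matrix. The 5 that fell on both were MTOR, its partner RPTOR, its inhibitor TSC2 and the stress-induced inhibitors DDIT4 and SESN2, with DDIT4 at −1.18 and −1.71. In the list of nucleolar stress and p53, 4 of 10 rose on the soft matrix, and 2 rose and 1 fell on the stiff matrix. MDM2, the ligase that RPL5 and RPL11 bind, rose by 1.62 and 1.26. CDKN1A, the 1 that fell on the stiff matrix, changed by −0.13 on the soft and −0.42 on the stiff matrix. For stiffness 0 genes of this list passed.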

How the data were processed

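RNA of LX-2 cells on soft or stiff hydrogel was sequenced as paired ends after NEBNext Ultra library preparation. The sources name Trim Galore, STAR 2.7.1a, bedtools 2.24.0, HTSeq and DESeq2, with build hg19, while the annotation and strand setting of the counting are not given in the sources used here. The authors deposited a table of raw counts per gene, which was tested here, and a table of FPKM, which was used for levels per length. The FPKM deposited by the authors were scaled by size factors. A wrong strand setting or multiply placed reads would change counts of members that overlap other genes or have pseudogenes.

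Groups came from the labelled matrix and day, with 2 libraries each. The 14570 genes kept by filterByExpr in edgeR 4.0.16 (R 4.3.3) were scaled by TMM and fitted in 1 quasi-likelihood model over all 8 libraries, with Benjamini-Hochberg adjustment over all genes tested and a threshold of 0.05. Contrasts were stiff against soft on each day, 4 against 2 days on each matrix, and their interaction. Fold changes are log2 values with standard errors. DESeq2 1.42.0, limma 3.58.1 on log2(FPKM + 1), other filters and scaling, spline offsets for length and GC content (5 degrees of freedom), separate fits, a replicate block and leaving out each library were the alternatives. Scaling from the members alone and a crossed pairing were added after the data were seen. Tables were handled in Python 3.11.15 with pandas 2.3.3 and scipy 1.17.1. On simulated counts of 14570 genes for stiff against soft at 4 days, edgeR recovered 164 of 200 changed genes with 17 false calls. The planted changes were 2 on the log2 scale, up or down, and no library was given a shared shift in that simulation. Recovery of changes as small as the members' median of 0.39 was not tested. The deviations of same-numbered libraries from their group means had correlations of −0.036 between soft and stiff at 2 days and −0.490 at 4 days. Between the days they were 0.077 on the soft and 0.025 on the stiff matrix. The numbers were therefore not taken as pairs. At 4 days the negative value means that opposite-numbered libraries deviated together, which the crossed pairing modeled.

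Members named in the text were RPLP0, RPLP1, RPLP2, RPSA, RPS6, RPL5, RPL11 and RPS27A, the 3 largest and 3 smallest fold changes of each contrast, the 5 highest and 5 lowest FPKM, and every member called. Other members that are named, such as those that peaked in another library, were chosen after their values were seen. The members and the gene lists were chosen with earlier results of these data known. Gene lengths, GC content and pseudogene names came from a GRCh37 annotation, and start windows from RefSeq on GRCh38.p14. Depth was 19955975 to 27263935 counts per library, and members with few counts, such as RPS10 and RPL36A, carry more counting error.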

Additional observations from a re-analysis of the deposited data

How the results depend on the processing

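For stiff against soft, no alternative other than leaving out a library gave a call among the 76 members on either day. The same held for the interaction. Of all genes these alternatives called 0% to 4.67% at 2 days, the highest share in a separate fit of the groups. At 4 days they called 0% to 2.06% and for the interaction 0% to 0.0549%. The median log2 change at 2 days moved to −0.040 without scaling factors and to 0.11 with offsets for length and GC content. With time on the soft matrix the main fit called 3 members, where 27.4% of all genes passed. DESeq2 called 7 (29.6% of all genes), the fit with offsets 19 (28.4%) and a separate fit of the groups 26 (50.7%). On the stiff matrix the main fit called 9 (27.6% of all genes), DESeq2 14 (29.8%) and the fit with offsets 20 (31.4%). Limma on log2 FPKM called 4 with a pseudocount of 0.1 (28.8%) or of 1 (29.3%), and 3 without a filter (17.1%). Scaling from the members alone called 3 (1.52%), and a separate fit called 0, as over all genes (0%). The causes of these moves were not tested.

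Leaving out 1 library at a time, the calls ran from 0 to 0 for stiffness at 2 days, 0 to 74 at 4 days, 2 to 29 for time on the soft matrix, 1 to 72 on the stiff matrix and 0 to 70 for the interaction. The medians ran from −0.038 to 0.080, −0.22 to 0.85, −0.18 to 0.19, −0.22 to 0.79 and −0.23 to 0.83 in the same order. Stiff library 2 or 1 at 4 days set both ends of the ranges for stiffness at 4 days and the interaction. Each of these fits leaves a condition with a single library. Except for stiffness at 2 days, the share of all genes called also moved widely between the same fits. The ranges of calls are therefore no measure of instability in the members alone.

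With a replicate block 0 members were called for stiffness on either day or for the interaction, as over all genes (0%). For time on the soft matrix 4 were called, 0 higher and 4 lower, where 11.2% and 11.7% of all genes were. On the stiff matrix 9 were called, 6 higher and 3 lower, where 10.4% and 11.8% of all genes were. Crossing the numbers at 4 days called 0 members, where 2.06% of all genes were called, beside 0.247% in the main fit. For single named members, 625 results kept their direction and side of the threshold, 80 lost a call, 30 gained one and 0 reversed a called direction.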
